A study of Mus musculus with 36 samples.

Results

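Cxcl9, Cxcl10 and Cxcl11 are neighbouring genes on mouse chromosome 5 that encode the chemokines recognised by the receptor CXCR3. Chromatin accessibility at these genes was followed by ATAC-seq, an assay in which a transposase cuts and tags DNA that is not covered by nucleosomes, in dendritic cells exposed to microbial ligands. A peak was assigned to the genes when its deposited interval (mm10) overlapped a gene body or the 20 kb to either side, and 15 of 119751 peaks met this rule. All 15 had enough counts to be tested. The nearest peaks outside the rule lay 882 bp and 9096 bp beyond the ends of the window, which spans 81.966 kb.

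The cells were bone marrow-derived dendritic cells, a mixed culture of antigen-presenting cells grown with GM-CSF at 15 ng/mL from marrow of female C57BL/6J mice of 6 to 8 weeks (the strain label reads C57BL/6). They were exposed for 6 h to 3',3'-cGAMP (cG), depleted zymosan (Z), HMW (H), LPS (L), PAM (P) or SeV (S), to the pairs LH, PcG, PH, PL, PS, ScG, ZcG and ZS, to the triplets PLH, PScG and ZScG, or to no ligand (Ctrl). Every group, the control included, shared the strain, the GM-CSF culture and an overnight rest before stimulation, and ligand doses are not given in the sources used here. Each of the 18 groups had 2 libraries, and nothing in the labels says whether these came from separate cultures or mice, so p-values measure only the spread between these libraries.

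CXCL9, CXCL10 and CXCL11 draw activated T cells and natural killer cells to sites of infection. Their genes are classical targets of interferon signalling: type I interferon acts at interferon-stimulated response elements (ISRE), interferon-gamma acts at gamma-activated sites (GAS), and NF-kappaB binds kappaB sites in the Cxcl9 and Cxcl10 promoters. LPS is sensed by TLR4, 3',3'-cGAMP by STING and depleted zymosan by Dectin-1, and the TLR4 and STING routes lead to type I interferon. In C57BL/6 mice Cxcl11 carries a frameshift and makes no functional protein, and RefSeq lists it as a transcribed pseudogene.

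The stretches before the starts of Cxcl9 and Cxcl10 are shown because the start-site peaks compared below cover them. They are the 250 bases upstream of each start on the minus strand of RefSeq GRCm38.p6, at chr5:92328080-92328329 for Cxcl9 and chr5:92348890-92349139 for Cxcl10, written 5′ to 3′ with motif matches in capitals.
Cxcl9: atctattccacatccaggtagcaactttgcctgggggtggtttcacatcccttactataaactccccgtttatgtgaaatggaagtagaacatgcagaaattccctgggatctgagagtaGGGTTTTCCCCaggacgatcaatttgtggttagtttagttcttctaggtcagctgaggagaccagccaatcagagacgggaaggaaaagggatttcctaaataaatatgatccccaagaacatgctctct
Cxcl10: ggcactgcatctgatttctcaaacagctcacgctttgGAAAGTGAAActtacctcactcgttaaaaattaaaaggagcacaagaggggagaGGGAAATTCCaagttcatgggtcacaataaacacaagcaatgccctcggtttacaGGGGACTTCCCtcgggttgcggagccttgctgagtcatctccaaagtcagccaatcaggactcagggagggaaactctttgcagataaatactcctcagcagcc
In the RefSeq promoter table (250 bases before to 50 after each start), the ISRE core, searched as GAAA, 2 free bases and GAAA, matched 3.44% of 32851 promoters on either strand. Cxcl10 held 1 match, beginning 213 bases before the start, and Cxcl9 held 0 matches. The GAS letters, searched as TTC, 3 free bases and GAA and found in 8.30% of promoters, matched neither gene. The kappaB letters, searched as GGG, 5 free bases and CC, are loose and occurred in 50.8% of promoters. Cxcl10 held 3 such matches, at 159, 104 and 103 bases before the start, of which the last 2 overlap, and Cxcl9 held 2 overlapping matches at 130 and 129 bases before the start. These are letter matches within this window and say nothing of binding. Cxcl11 was not matched in the promoter table.

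Depth ranged from 19097027 to 39977088 counts per library. The mitochondrial peak took 44.1% to 63.1% of them and was left out of every scaling and test. The remaining 8181254 to 21985891 counts gave the normalised values, in CPM (counts scaled to a common TMM-normalised library size). The mitochondrial share set 5 groups apart: Ctrl, Z, ScG, ZcG and ZScG had group means of 58.3% to 63.0%, against 44.4% to 54.5% in the other 13. Because the control belongs to the first set, the fit was repeated with this share as a covariate. With 1 coefficient per group, the slope of that covariate rests only on differences between the 2 libraries within groups. That fit therefore cannot tell the part of the share from that of the group. Of the calls at the 15 peaks, 51 of 104 against control, 23 of 36 for pairs against single ligands, 6 of 17 pair interactions, 1 of 3 triplets against pairs, 1 of 5 triplet interactions and 31 of 50 between single ligands were kept, and every one of these calls kept its sign. The losses are given beside the main results, and the part of the share in those results was not tested further. Within the set, all 4 stimulated groups had the Cxcl10 start-site peak above control, 3 of 4 had the Cxcl11 peak above control, and 0 of 4 had the Cxcl9 peak above control by the edgeR test. All 9 listed dendritic and myeloid genes, among them Itgax, Flt3, Zbtb46 and Csf1r, had an accessible peak at an end of the gene, with summed levels of 176 to 231 CPM per library. The macrophage genes Adgre1, Mertk and Fcgr1 summed to 32.2 to 63.0 CPM, and 0 of 3 T cell genes (Cd3e, Cd3g, Lck) had a peak. Of the neutrophil genes only S100a8 had one, at 17.2 to 20.5 CPM in control and 6.37 to 21.7 CPM over all libraries. Peaks at 2 of 3 B cell genes summed to 10.1 to 17.9 CPM and those at 2 of 3 erythroid genes to 11.3 to 19.8 CPM. In such bulk samples, a change in the share of cells with accessible chromatin and a change within each cell cannot be told apart.

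Accessibility over the window was uneven. The start of Cxcl10 (gene at 92346638-92348889, minus strand) lies in a broad peak of 5823 bp (chromosome 5, 92344162-92349984) that begins 1095 bp before the gene, covers all of it and runs 2476 bp past its end. Reads from the promoter, the body and the downstream flank are therefore summed in 1 value, which averaged 50.9 CPM over the 36 libraries (170 to 1431 counts). The start of Cxcl9 (gene at 92321331-92328079, minus strand) lies in a peak of 560 bp (92327938-92328497) with a mean of 2.23 CPM and only 9 to 66 counts. The upper end of Cxcl11 (gene at 92359544-92363296), taken as its start-site peak, lies in a peak of 491 bp (92363123-92363613) with 3.48 CPM and 13 to 93 counts. Per kb of peak the means were 8.75 CPM for Cxcl10, 3.99 CPM for Cxcl9 and 7.09 CPM for Cxcl11, so per kb Cxcl10 and Cxcl11 were much closer than in total level. The densest peak of the window was none of these. It lay 4.88 kb upstream of the Cxcl10 start (92353306-92354241), within the body of Art3, at 20.7 CPM per kb. Art3, an ADP-ribosyltransferase gene on the plus strand, overlaps 9 of the 15 peaks, and 8 of the 15 fall in the windows of at least 2 of the chemokine genes, so a peak cannot be assigned to 1 gene by position.

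**Figure D1:**
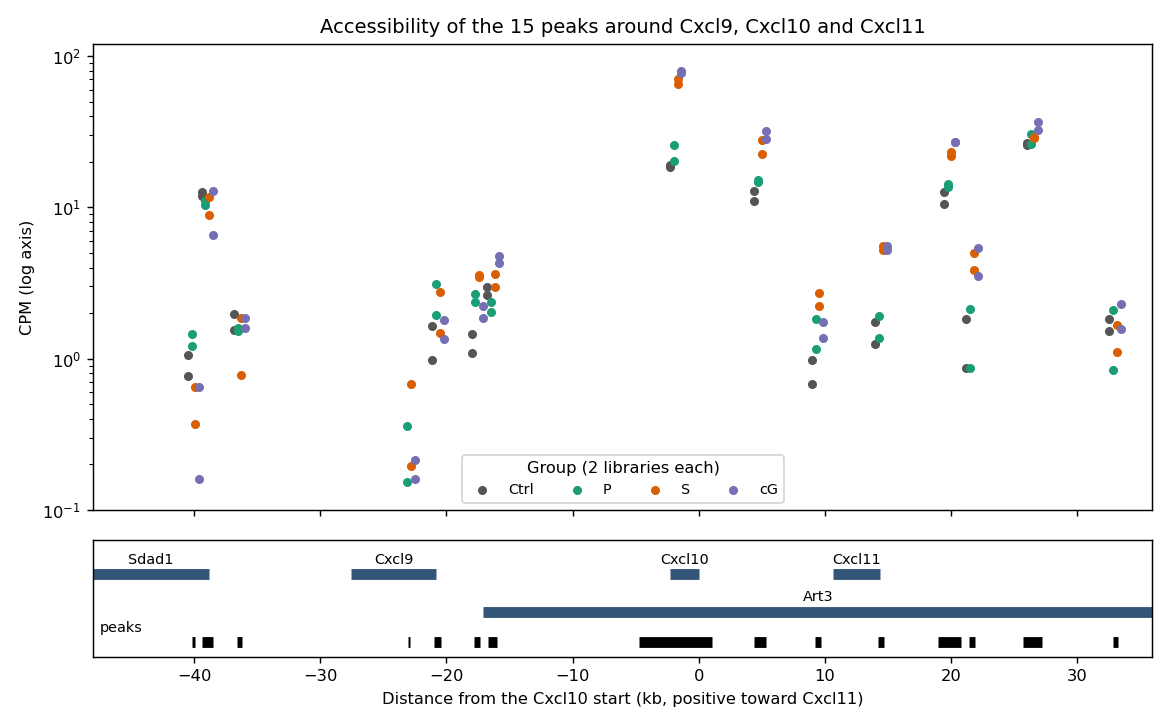
Level of each of the 15 peaks in CPM (log axis) against the distance of its centre from the Cxcl10 start in kb, with 1 point per library for Ctrl, P, S and cG. Gene bodies and peaks are drawn to scale underneath, and libraries at 0 (both control libraries at the peak inside Cxcl9) cannot be shown on the log axis. The cG and S points lie above the control points from the broad Cxcl10 peak through the Cxcl11 start to 21.7 kb, whereas the peak at the Sdad1 start, 39.0 kb downstream, shows no such rise.

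Which ligands open the Cxcl10 locus was asked first by setting each stimulated group against control. Accessibility of the Cxcl10 peak rose in 16 of 17 stimulated groups, by 0.63 (depleted zymosan) to 2.06 (3',3'-cGAMP) on the log2 scale. The control libraries held 18.6 and 19.0 CPM. Among single ligands, the 2 libraries held 77.6 and 79.0 CPM with cG, 70.9 and 65.0 with S, 60.3 and 58.2 with L, 52.7 and 48.0 with H, 32.0 and 26.4 with Z, and 25.6 and 20.3 with P. Every stimulated library thus lay above both control libraries, those with P by the least, and the groups S, L and H did not overlap with Z or P. The rise with cG was 2.06 ± 0.11 (SE) on the log2 scale, or 4.16-fold (adjusted p = 8.1e-40, edgeR quasi-likelihood test). With Z it was 0.63 ± 0.12 (adjusted p = 0.00013). With PAM alone the change was 0.29 ± 0.12 and did not pass (adjusted p = 0.0812). That value rests on single libraries and on the scaling: it was 0.11 (adjusted p = 0.680) without the first P library, 0.45 (adjusted p = 0.0214) without the second P library and 0.61 (adjusted p = 5.94e-05) under scaling by total counts. The 16 calls were kept under all 11 other settings and after leaving out each library of the contrast in turn.

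The pairs and triplets filled the range between Z and S. PS held 60.0 and 57.8 CPM, ZcG 56.5 and 60.2, ScG 55.9 and 55.8, PcG 54.4 and 54.3, LH 58.5 and 50.2, ZS 53.4 and 46.2, PH 43.9 and 47.6, and PL 42.8 and 41.5. The triplet ZScG held 67.5 and 65.6 CPM, PScG 66.1 and 60.7, and PLH 44.2 and 36.6. Ordered by mean, the Cxcl10 peak ran from cG (78.3 ± 1.03 CPM, SD, n = 2) through S, ZScG, PScG, L, PS, ZcG, ScG, LH, PcG, H, ZS, PH, PL, PLH, Z and P to control (18.8 ± 0.31 CPM). Libraries of neighbouring groups overlapped at 9 of the 17 steps of this order, among them S to ZScG and ScG to LH to PcG. No combination exceeded 3',3'-cGAMP alone.

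The Cxcl11 peak rose in 12 of 17 stimulated groups. It held 1.75 and 1.25 CPM in control, 5.25 and 5.59 with cG, 5.23 and 5.54 with S, 3.75 and 3.45 with H, 2.62 and 2.73 with Z, 2.54 and 2.48 with L, and 1.91 and 1.37 with P. Its order among single ligands thus differed from that of Cxcl10 in L, which followed cG and S for Cxcl10 and lay below H and Z for Cxcl11, although L against H was not called there (-0.52 ± 0.32, adjusted p = 0.454). Against control the change was 1.86 ± 0.36 with cG (adjusted p = 1.8e-05), 1.85 ± 0.36 with S (adjusted p = 1.2e-05) and 1.27 ± 0.38 with H (adjusted p = 0.0147). With L it was 0.75 ± 0.39 and did not pass (adjusted p = 0.157). Among pairs, ScG stood apart with 4.93 and 5.79 CPM, above every library of the other pairs except the first PL library at 5.02, whose partner held 3.06. The calls for S and ScG were kept in every setting and after every left-out library. With the mitochondrial share as covariate, 5 of the 12 calls remained, and those for cG (1.86, adjusted p = 0.117) and H (1.27, adjusted p = 0.194) were lost with nearly the same fitted change. H was also lost without its first library (adjusted p = 0.0953) or the second control library (0.168).

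The Cxcl9 peak behaved otherwise. It held 0.983 and 1.64 CPM in control, and among single ligands was highest with L (2.54 and 2.80) and P (3.13 and 1.95). S gave 2.75 and 1.48 CPM, H 2.10 and 1.64, cG 1.35 and 1.79, and Z 1.71 and 0.944. Thus cG, which gave the highest Cxcl10 level, overlapped control at Cxcl9, and none of the 6 single ligands passed the edgeR test. The 3 groups that did pass all contain P: PcG with 3.01 and 4.21 CPM (1.43 ± 0.43, adjusted p = 0.0052), PL with 4.02 and 1.83 (1.18 ± 0.45, adjusted p = 0.0365) and PScG with 3.59 and 2.13 (1.09 ± 0.45, adjusted p = 0.0447). P, PH, PS and PLH also contain P and did not pass. ScG, which lacks P, had a change of 0.98, close to that of PScG, and did not pass either. Under scaling by total counts 6 of the 17 contrasts were called, with L, P and PLH in addition. Which groups pass, single ligands among them, thus depends on the scaling. The 3 calls of the main fit rest on few counts. Without the first control library the adjusted p was 0.103 for PcG, 0.259 for PL and 0.286 for PScG, and with the mitochondrial share as covariate it was 0.212, 0.131 and 0.309, although the fitted changes were then larger (1.93, 1.49 and 1.59). Each also depended on 1 library of its own: without it PL was 0.47 (adjusted p = 0.635), PScG 0.68 (0.364) and PcG 1.18 (0.0742). Between all 17 neighbours in the order of the Cxcl9 levels the libraries overlapped.

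**Figure D2:**
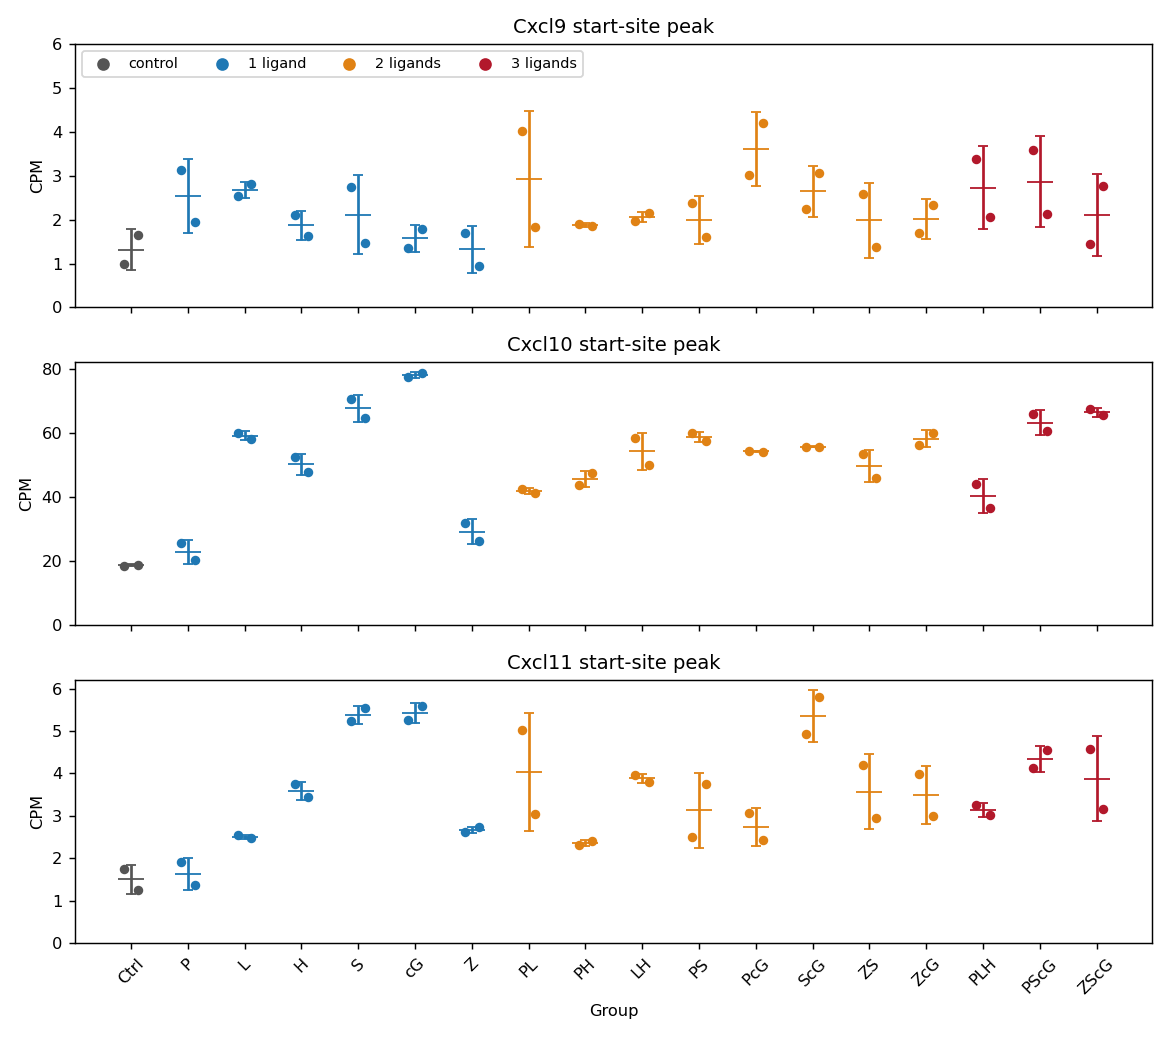
CPM (linear axes from 0) of the peaks at the starts of Cxcl9, Cxcl10 and Cxcl11 in all 18 groups. Points are the 2 libraries of each group, horizontal lines the mean and bars ± 1 SD, and colour gives the number of ligands. At Cxcl10 all stimulated groups lie above the control at 18.6 and 19.0 CPM and cG is highest, whereas at Cxcl9 the libraries of neighbouring groups in the order of levels overlap throughout.

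Over all 15 peaks and 17 stimulations, 103 of 255 tests (40.4%) were called higher, against 13% of all tests over the 119464 tested peaks, and 1 was called lower, against 12.3%. Leaving aside the peak that was at 0 in control, 93 of 238 were higher. By group, 3',3'-cGAMP opened 6 of the 15 peaks, where 11.6% of all peaks were called higher, SeV 8 (all: 14.1%), LPS 6 (11.2%), HMW 3 (5.21%), depleted zymosan 2 (4.16%) and PAM 0 (11.1%). For PAM, 5 of the 15 had an unadjusted p under 0.05 and DESeq2 called 0. In edgeR the Cxcl10 peak was called for PAM with DESeq2 size factors (adjusted p = 0.0478) and under scaling by total counts (5.94e-05), so the count of 0 depends on the scaling. Pairs opened 8 (PcG, all: 16.8%), 8 (PS, 17.3%), 8 (LH, 11.3%), 8 (PL, 13.8%), 7 (ZcG, 11.4%), 7 (ScG, 14.4%), 5 (ZS, 14.4%) and 5 (PH, 13.6%). Triplets opened 9 (PScG, 19%), 7 (PLH, 14.9%) and 6 (ZScG, 16.2%). The peaks were chosen by position, neighbouring peaks are not independent, and all 17 contrasts share the 2 control libraries, so these counts describe the locus and are not separate tests of it. Without either control library the 104 calls numbered 68.

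Beyond the Cxcl11 start, a pair of peaks rose in most groups. The peak 19.9 kb upstream (92367862-92369710), in Art3, rose in 14 of 17 groups, and 12 of these calls held throughout. It held 10.5 and 12.5 CPM in control, 27.2 and 27.0 with cG, 21.9 and 23.2 with S, 21.8 and 21.8 with L, and 14.3 and 13.7 with P. Its rise was 1.23 ± 0.15 with cG and 0.92 ± 0.15 with L. The smaller peak 21.7 kb upstream (92370349-92370827) rose in 12 groups, by up to 1.69 ± 0.39 with cG (adjusted p = 0.0003), from 0.874 and 1.83 CPM in control to 3.50 and 5.37 CPM. Of these 12 calls, 0 held throughout and 2 remained with the mitochondrial share as covariate. Over the 18 group means, the log2 levels of these peaks ran closest to those of the Cxcl10 peak among the window's peaks, with Pearson r of 0.897 and 0.910. The Cxcl11 peak followed at 0.810, and the peaks 26.5 and 33.0 kb upstream had r of 0.166 and 0.174. These are descriptions over 18 means that share libraries and scaling.

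The dense peak 4.88 kb upstream of Cxcl10 rose in 14 groups. It held 12.9 and 11.0 CPM in control, 28.2 and 32.2 with cG, 27.9 and 22.6 with S, 21.1 and 17.3 with L, and 15.2 and 14.7 with P. The rise was 1.34 ± 0.15 with cG (adjusted p = 1.2e-13) and 1.08 ± 0.15 with S. Of the 14 calls, 6 held throughout, those for cG and S among them, and 7 remained with the mitochondrial share as covariate. In the triplet ZScG, where Cxcl10 stood at 67.5 and 65.6 CPM, this peak held 16.1 and 13.7 CPM and did not pass against control (0.33 ± 0.17, adjusted p = 0.131). Over the group means the levels of the 2 peaks had r = 0.674. A weaker peak 17.6 kb downstream of the Cxcl10 start (92331110-92331562), between Cxcl9 and Art3, was called higher in 10 groups, by up to 1.83 ± 0.40 in PScG (1.09 and 1.45 CPM in control, 3.86 and 5.19 in PScG). PScG was the only 1 of those calls that held throughout, and 4 of the 10 remained with the mitochondrial share as covariate. A peak 9.44 kb upstream (92358086-92358569) was also called higher in 10 groups, by up to 1.72 ± 0.48 with L, and 0 of these calls held throughout, with 3 kept under the covariate.

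The peak inside Cxcl9 (92325802-92326021) had 0 counts in both control libraries and both ZS libraries, and 0 to 20 counts elsewhere. Its 10 calls set small counts against 0 and give no usable fold. Against a floor of 3 counts per control library (0.309 CPM), the mean level was at least 2.15-fold higher in PcG (11 and 12 counts). In LH (20 and 5 counts) it was at least 2.65-fold higher, and at least 1.29-fold without the first library. Toward the edges of the window few changes against control were called. The peak at the start of Sdad1, a neighbouring gene needed for ribosome biogenesis, held 11.8 and 12.6 CPM in control and was called in 0 of 17 contrasts, with changes of -0.50 to 0.12. The peak 26.5 kb upstream (92374585-92376150), the highest after Cxcl10 at 27.8 CPM, was called against control only for L and cG (0.40 each), in 0 groups with the mitochondrial share as covariate and in 10 under scaling by total counts. Among stimulated groups, 2 pairs against a single ligand and 4 contrasts between single ligands were called at this peak, and 0 of them held throughout. The remaining peaks, at 40.1, 36.4 and 16.3 kb downstream and 33.0 kb upstream, held 0.16 to 4.77 CPM. The only call against control among them was a fall in PS at 36.4 kb (92312289-92312660), by 1.41 on the log2 scale. It rested on 7 to 49 counts per library over all groups and did not hold throughout. Changes against control at 40.1 kb ran from -1.60 to 0.62 on 2 to 31 counts. Between stimulated groups, 1 pair against a single ligand was called at 40.1 kb. At 16.3 kb, 2 pairs against a single ligand and 2 contrasts between single ligands were called. Of these calls between stimulated groups, 0 held throughout, and a triplet interaction at 16.3 kb is given below.

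**Figure D3:**
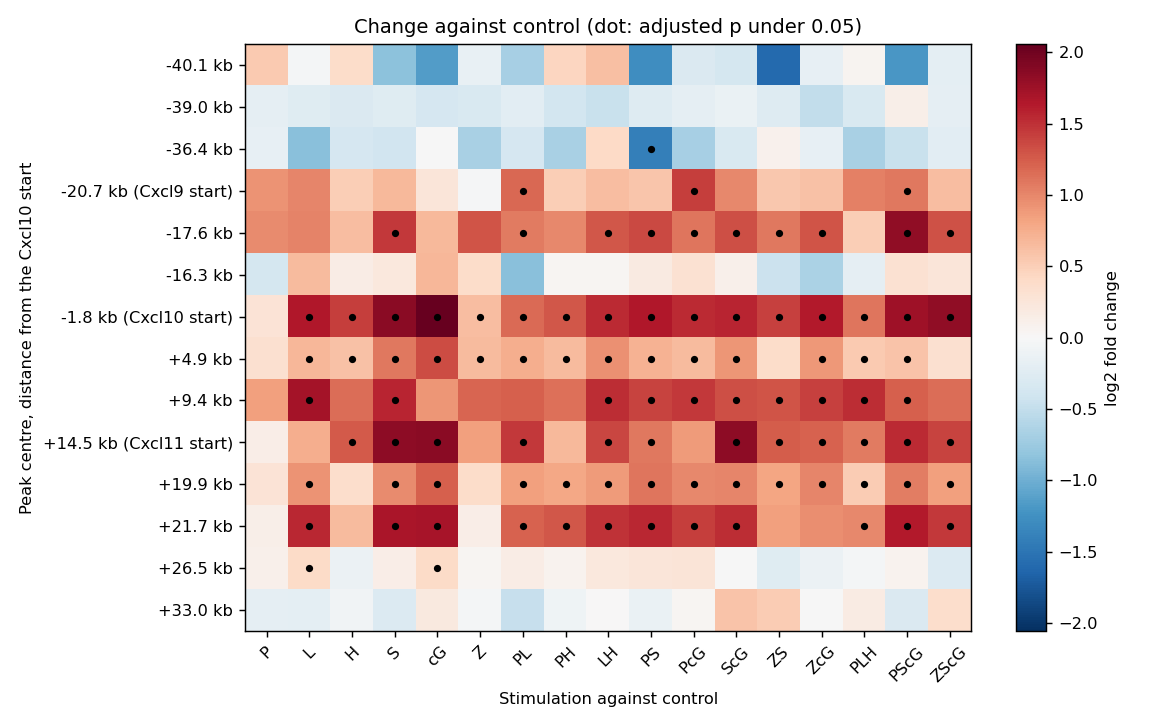
Fitted log2 fold change against control (colour) of 14 peaks (rows, by distance of the centre from the Cxcl10 start in kb) in the 17 stimulated groups (columns). A dot marks an adjusted p under 0.05, and the peak inside Cxcl9 is left out because control is at 0 there. The row of the broad Cxcl10 peak is dotted in all columns but P, and the 2 rows farthest downstream carry 0 dots.

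Single ligands were then compared with each other, without the control. Of 225 tests over 15 contrasts, 50 (22.2%) were called, against 11.4% of all tests. At Cxcl10, PAM lay below each of the other 5 ligands, by 0.34 ± 0.12 against Z (adjusted p = 0.0403) to 1.77 ± 0.11 against cG (adjusted p = 2.6e-35). The difference from Z is fragile. Taken as P minus Z, it turned above 0 under scaling by total counts (0.01, adjusted p = 0.964). It stayed below 0 without the first Z library (-0.18). It was no longer called with the mitochondrial share as covariate (adjusted p = 0.609) or with DESeq2 (0.0821). L, H, S and cG all exceeded Z, by 0.79 ± 0.11 (H) to 1.43 ± 0.11 (cG). cG exceeded L by 0.40 ± 0.10 (adjusted p = 0.0028) and H by 0.64 ± 0.10. At Cxcl11, S exceeded L by 1.10 ± 0.31 (adjusted p = 0.0085) and cG exceeded L by 1.11 ± 0.31 (adjusted p = 0.0116). Neither held throughout: L against S was lost without either L library or the second S library (adjusted p of 0.0667 to 0.0873), and L against cG after thinning (0.104) and without any 1 of the 4 libraries (0.0513 to 0.100), with changes of nearly the same size. S and cG differed at 0 of the 15 peaks by edgeR and by DESeq2, where 0.949% of all peaks differed, and 4 of the 15 had an unadjusted p under 0.05. This does not show that the 2 ligands act alike here.

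What a second ligand added was asked by setting each pair against its single ligands. Of 240 tests, 22 (9.17%) were called higher, against 3.56% of all, and 14 (5.83%) lower, against 2.92%. Under scaling by total counts the split was 21 higher to 21 lower, and with the mitochondrial share as covariate it was 18 to 5. The Cxcl10 peak made up 11 of the 36 calls. It rose when a second ligand was added to P or Z, with PS above P by 1.36 ± 0.11 and ZcG above Z by 1.00 ± 0.11. It fell when a partner was added to the stronger ligand in 5 contrasts: PcG lay below cG by 0.53 ± 0.10 (adjusted p = 2.7e-05), PL below L by 0.49 ± 0.10 (adjusted p = 0.0018), ScG below cG by 0.49 ± 0.10 (adjusted p = 0.00055), ZS below S by 0.45 ± 0.10 (adjusted p = 0.0031) and ZcG below cG by 0.42 ± 0.10 (adjusted p = 0.0063). Of these falls, PcG against cG held throughout. With the mitochondrial share as covariate PL against L (-0.54, adjusted p = 0.0517), ScG against cG (-0.57, 0.240) and ZcG against cG (-0.53, 0.646) were lost. PL against L was also lost without the second PL library (0.0766), ZS against S without the first S (0.130) or the second ZS library (0.195), and ZcG against cG without the first ZcG (0.118) or the second cG library (0.0819). PS against S, PH against H, LH against L and ScG against S were not called, with changes of -0.21, -0.14, -0.12 and -0.28.

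The addition of PAM to 3',3'-cGAMP moved the start-site peaks in opposite directions. In PcG against cG, 4 of the 15 peaks were called, where 9.11% of all peaks were. Cxcl9 went from 1.35 and 1.79 CPM to 3.01 and 4.21, a rise of 1.18 ± 0.40 (adjusted p = 0.0410). Cxcl10 went from 77.6 and 79.0 CPM to 54.4 and 54.3, and Cxcl11 from 5.25 and 5.59 to 3.06 and 2.42, a fall of 0.97 on the log2 scale (SE 0.30, adjusted p = 0.0244). The peak 4.88 kb upstream of Cxcl10 fell by 0.69 (SE 0.14, adjusted p = 6.2e-05). The groups did not overlap at any of these 4 peaks. As a ratio within a library, the Cxcl10 peak held 57.4 and 44.1 times the CPM of the Cxcl9 peak with cG and 18.1 and 12.9 times with PcG, against 18.9 and 11.6 times in control. The Cxcl9 rise was lost with DESeq2 (adjusted p = 0.0618), after thinning to equal depth (0.102) and without any 1 of the 4 libraries (0.0523 to 0.313). The Cxcl11 fall was lost after thinning (0.121), under scaling by total counts (0.0510) and without any 1 of the 4 libraries (0.0636 to 0.227). The Cxcl10 fall held in all of them.

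**Figure D4:**
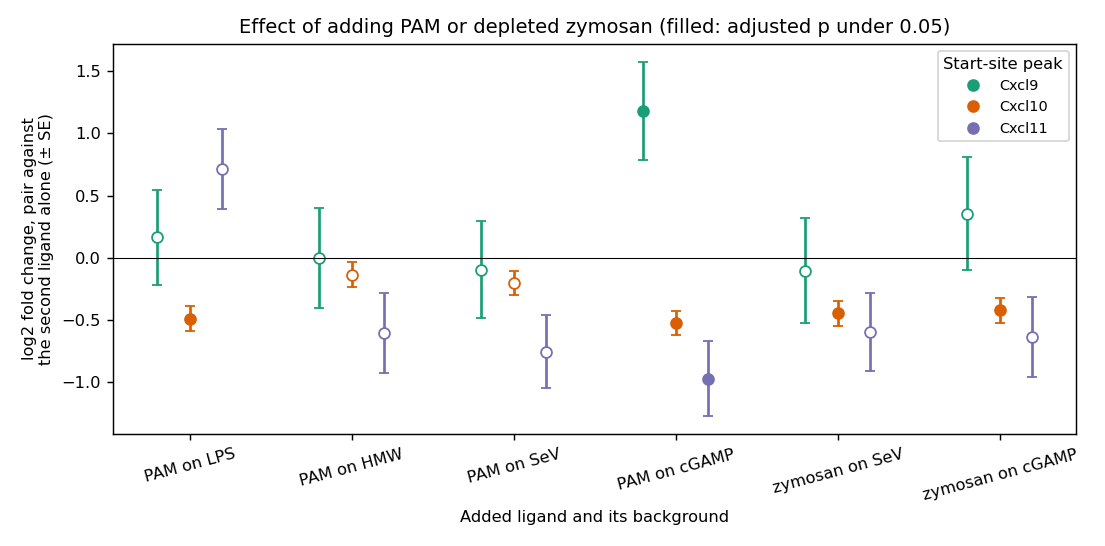
Fitted log2 fold change ± SE of each pair with PAM or depleted zymosan against the second ligand alone, for the peaks at the starts of Cxcl9, Cxcl10 and Cxcl11. Filled points have an adjusted p under 0.05. Every Cxcl10 point lies below 0, and the only filled Cxcl9 point is PAM on cGAMP at 1.18.

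Whether the ligands combine additively was tested with the interaction AB - A - B + control, which is 0 when log2 changes add. All 17 calls among 120 tests were below 0 (14.2%, against 3.1% of all tests called lower). Under scaling by total counts there were 34 calls and with the mitochondrial share as covariate 6, again all below 0. The Cxcl10 peak gave 7 of the 17 calls: ScG (-2.34 ± 0.15), LH (-1.54 ± 0.15), ZS (-1.08 ± 0.16), ZcG (-1.05 ± 0.16), PcG (-0.81 ± 0.16), PL (-0.78 ± 0.16) and PS (-0.49 ± 0.16). The sum of S and cG would be 3.91 on the log2 scale and the pair reached 1.57. PH did not pass (-0.42 ± 0.16, adjusted p = 0.176). The calls for LH, PcG, ScG, ZS and ZcG held throughout, and those for PL and PS were lost with the mitochondrial share as covariate (-0.90 and -0.55, adjusted p = 0.148 and 0.129). PS was also lost without any 1 of 6 of its 8 libraries, with values down to -0.32 (adjusted p = 0.370, without the first P library). For ScG, 6 of the 15 peaks were called below 0, where 7.52% of all peaks were: Cxcl10, Cxcl11 (-1.87 ± 0.47) and the peaks 4.88, 19.9, 21.7 and 26.5 kb upstream of the Cxcl10 start. ScG and control belong to the groups of high mitochondrial share and S and cG do not. With that share as covariate the Cxcl10 interaction was kept (-2.51, adjusted p = 2.6e-07) and the other 5 were lost (adjusted p of 0.329 to 0.720), with fitted values of -0.63 to -1.94. The Cxcl9 peak gave 0 called interactions, with values of -1.03 to 0.39 and SEs of 0.59 to 0.69. These SEs are close in size to the Cxcl10 interaction in PcG, so the depth there could not show a difference of that size.

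At Cxcl10 all 11 combinations lay below the sum of their single ligands and below their strongest single ligand, the latter by 0.12 (LH) to 0.55 (PLH) on the log2 scale. At Cxcl11, 10 of 11 lay below the sum and 2 lay above the strongest single ligand, PL by 0.71 and LH by 0.11. At Cxcl9, 8 of 11 lay below the sum and 6 above the strongest single ligand, PcG by 0.50 at most. These positions share control and single-ligand libraries and carry no test of their own beyond the contrasts given.

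**Figure D5:**
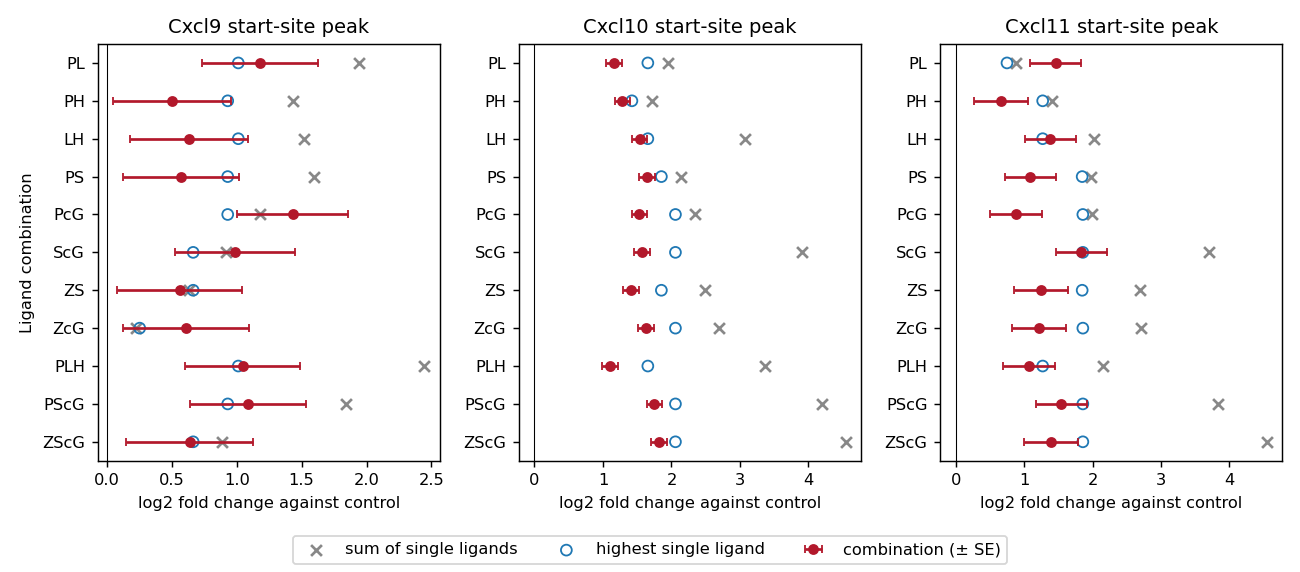
Log2 fold change against control of the 8 pairs and 3 triplets (filled points, ± SE), the sum of their single ligands (crosses) and their highest single ligand (open circles) at the peaks of Cxcl9, Cxcl10 and Cxcl11. At Cxcl10 every filled point lies left of the cross and of the circle, and the ScG point at 1.57 is far from its cross at 3.91.

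Triplets added little to their pairs. Of 135 tests, 3 (2.22%) were called, all lower, against 0.61% of all tests called lower, and under scaling by total counts the split was 1 higher to 0 lower. PLH lay below LH at Cxcl10 (44.2 and 36.6 against 58.5 and 50.2 CPM), a fall of 0.43 (SE 0.10, adjusted p = 0.0180). That call was lost without the first LH library (adjusted p = 0.382) or the second PLH library (0.491), with the mitochondrial share as covariate (0.0988), under scaling by total counts (0.0797) and after thinning (0.0854). At the peak 4.88 kb upstream, ZScG lay below ScG by 0.58 ± 0.16 and below ZcG by 0.57 ± 0.16 (adjusted p = 0.0445 and 0.0288). Both were fragile, being lost under total-count scaling (0.0603 and 0.155) and without either ZScG library (0.0647 to 0.295). At Cxcl10, ZScG against ZS was 0.42 ± 0.11 and not called by edgeR (adjusted p = 0.0844), and was called higher by DESeq2 (0.43, adjusted p = 0.0405). The triplet interaction, which is 0 when pairs and singles predict the triplet on the log2 scale, was called in 5 of 45 tests (11.1%, against 0.837% of all called higher), all above 0. They were Cxcl10 in PScG (1.20 ± 0.21) and ZScG (1.76 ± 0.22), the peak 4.88 kb upstream in both, and the peak 16.3 kb downstream in ZScG (2.51 ± 0.74, adjusted p = 0.0477). The last peak (92332215-92332924), just inside the start of Art3, held 2.62 and 2.99 CPM in control and 3.24 and 3.45 in ZScG. The pairs ZcG (1.21 and 2.34) and ZS (1.72 and 2.40) lay below both ZScG libraries. The remaining pair ScG (mean 3.03 ± 0.34 CPM, SD) and S (3.28 ± 0.46) lay near ZScG. The means of cG (4.54 ± 0.34) and Z (3.67 ± 0.74) were above it. At this peak ZScG was not called against control (0.25). ZScG at Cxcl10 was the 1 call that held throughout. With the mitochondrial share as covariate the other 4 were lost, PScG at Cxcl10 with a value of 1.35 (adjusted p = 0.132).

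Other genes of the pathway were examined from a list of 21 covering the receptor, interferon receptors, kinases, transcription factors, feedback inhibitors, interferon-beta and NF-kappaB, with 146 tested peaks in or within 1 kb of the gene. Called higher were 29 of these peaks with P (19.9%, against 11.1% of all peaks), 41 with L (28.1%, 11.2%), 19 with H (13%, 5.21%), 45 with S (30.8%, 14.1%), 35 with cG (24%, 11.6%) and 14 with Z (9.59%, 4.16%). Called lower were 5 with P (3.42%, against 9.45% of all peaks), 8 with L (5.48%, 11.1%), 7 with H (4.79%, 5.46%), 8 with S (5.48%, 13.8%), 8 with cG (5.48%, 11.6%) and 2 with Z (1.37%, 1.75%). The median change was 0.45 with S, where it was 0.00 over all peaks, and 0.14 with P, where it was -0.04. Values named here are those of each gene's most accessible peak. Ifnb1, which encodes interferon-beta, rose with S (3.10 ± 0.26) and cG (1.71 ± 0.28) and fell with P by 0.99 (SE 0.37). Irf7, an interferon-induced factor that amplifies interferon production, rose with cG (1.09 ± 0.13) and L (1.08 ± 0.13), and its change with P was 0.32 ± 0.13 (adjusted p = 0.0689). Socs3, a feedback inhibitor of cytokine signalling, rose with P (1.62 ± 0.13), as it did with L (1.67 ± 0.12). Dpp4, the protease that trims CXCR3 ligands, rose with S (2.85 ± 0.37), cG (2.44 ± 0.38) and L (1.62 ± 0.40). The single peak at Cxcr3 was called lower with L (-0.83 ± 0.25) and H (-0.73 ± 0.26) and not with the other single ligands.

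Peaks elsewhere in the genome were ranked by Pearson correlation of log2 CPM with each start-site peak over the 18 group means, among 32080 peaks with a mean of at least 5 CPM and more than 1 Mb away. Closest to Cxcl10 were peaks at Rsad2 (r = 0.978), which encodes the antiviral protein viperin, Hk3 (0.954), Wdr7 (0.950) and Ube2l6 (0.949), an enzyme of ISG15 conjugation, and a peak nearest to Oasl1 (0.960). Closest to Cxcl9 were peaks at Phlpp1 (0.895), Fscn1 (0.857), Il6 (0.855), the gene of an inflammatory cytokine, and Mfhas1 (0.853), and a peak nearest to Mgat4a (0.847). Closest to Cxcl11 were peaks at Zfp277 (0.911), Slc30a3 (0.908) and Rufy3 (0.893) and peaks nearest to Cxcr4 (0.893) and Nfkbiz (0.892). With Spearman correlation 2, 2 and 1 of the closest 5 recurred for Cxcl9, Cxcl10 and Cxcl11. Between the members themselves r was 0.810 for Cxcl10 with Cxcl11, 0.304 for Cxcl9 with Cxcl10 and 0.159 for Cxcl9 with Cxcl11. The low counts of the Cxcl9 peak limit any such r.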

How the data were processed

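ATAC-seq was run on 36 libraries of mouse bone marrow-derived dendritic cells, from 50000 cells each with 12 amplification cycles and 42-cycle paired reads per the labels' protocols. The deposited table holds raw read counts for 119751 peaks, 1 column per library. The submitters' processing notes name mm10, Bowtie2 2.2.9, MACS2 (version listed as 1.4), bedtools and featureCounts, with no role or order. Handling of duplicates, the shift for transposase cutting and whether libraries were pooled for peak calling are not given in the sources used here. Reads carry no molecular identifiers, so counting error understates technical error.

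The mitochondrial peak was left out. edgeR 4.0.16 (R 4.3.3) was run on the counts with TMM scaling, a filter on low counts (minimum 10) that dropped 286 peaks, 1 coefficient per group over all 36 libraries and a robust quasi-likelihood fit with a trended dispersion (common dispersion 0.020, 18 residual degrees of freedom). Each of the 68 contrasts had its p-values adjusted by Benjamini-Hochberg across the 119464 tested peaks, with calls made at an adjusted p under 0.05. Fitted changes are on the log2 scale. CPM shown are without a prior count, and correlations use a prior count of 2. The fit was also run on simulated data. These were drawn with the same dispersion at every peak and without an effect of the mitochondrial share. They cannot check the fit on those points. "Held throughout" means called under all 11 other settings and after leaving out each library of the contrast.

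Start-site peaks were named, with the other peaks of the window that were among the 6 with the highest mean CPM or had a called interaction. The peaks 17.6 and 36.4 kb downstream and 9.44 kb upstream of the Cxcl10 start were named after their values were seen. Members and lists were chosen with earlier results of these data known. Same-numbered replicates did not deviate together (r of -0.040 to 0.030 over 153 pairs of groups), so the numbers were not used as pairs. Alternatives were DESeq2 1.42.0, its size factors, total-count scaling, no filter, the mitochondrial peak kept or its share as a covariate, thinning to 1 depth, a replicate block, only the groups compared, and, chosen after seeing the data, leaving out a peak on chromosome 1 (24611386-24616337) that holds 13.2% to 28.0% of the remaining counts, with TMM or total-count scaling.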

Additional observations from a re-analysis of the deposited data

Results flagged for a closer look

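In the results below, the effect of 1 ligand differed with the presence of another by the test of the interaction itself (edgeR, log2 scale, SE in the report where given). All share the 2 control libraries. At the Cxcl10 peak the pair interactions were -0.78 (PL), -1.54 (LH), -0.49 (PS), -0.81 (PcG), -2.34 (ScG), -1.08 (ZS) and -1.05 (ZcG), so each pair reached less than the sum of its ligands. The triplet interactions there were 1.20 (PScG) and 1.76 (ZScG). By its formula, pair interactions below 0 raise the triplet value, and 0 tests of a triplet against a pair were called higher by edgeR.

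At the peak 4.88 kb upstream of the Cxcl10 start the pair interactions were -0.69 (PS), -1.02 (PcG), -1.51 (ScG), -1.36 (ZS) and -1.11 (ZcG), and the triplet interactions 1.06 (PScG) and 1.23 (ZScG). For ScG, the interaction was also called at the Cxcl11 start (-1.87), at the peaks 19.9 kb (-1.19), 21.7 kb (-1.85) and 26.5 kb (-0.54) upstream of the Cxcl10 start. These 4, and ScG at the peak 4.88 kb upstream, were not called with the mitochondrial share as covariate (adjusted p of 0.329 to 0.720). Over all these results, 6 of the 17 pair interactions and 1 of the 5 triplet interactions were still called with that covariate, and all kept their sign.

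The peak 16.3 kb downstream gave 2.51 for ZScG, on 10 to 92 counts per library. The peak inside Cxcl9 gave -10.26 for ZS, a fitted value that rests on 0 counts in both ZS and both control libraries and is no measure of size.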

How the results depend on the processing

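With the mitochondrial share as covariate the calls numbered 51 for stimulation against control, 23 for pairs against single ligands, 6 for pair interactions, 1 for triplets against pairs, 1 for triplet interactions and 32 (5 higher, 27 lower) between single ligands, against 104, 36, 17, 3, 5 and 50 (18 higher, 32 lower). After thinning to 1 depth, pairs against single ligands gave 22, triplets against pairs 0 and triplet interactions 2. Total-count scaling gave 34 pair interactions, 1 triplet against pairs and 12 triplet interactions, and it moved the median change of all peaks against control by -0.057 to 0.42 on the log2 scale. Fitting only the groups compared gave 1 triplet against pairs. The cause was not tested. The replicate block gave 103, 36, 17, 3, 5 and 50, and the replicate numbers do not pair the libraries.

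Leaving out 1 library at a time gave 68 to 105 calls against control (68 without either control library), 26 to 36 for pairs against single ligands, 13 to 18 pair interactions, 1 to 3 triplets against pairs (1 without either ZScG library), 2 to 6 triplet interactions (2 without the first S library; 3 without the first ZScG library or the second of Ctrl, cG or ScG) and 40 to 49 between single ligands. The sign turned for Cxcl10 in P against Z under total-count scaling (0.012). At low counts it turned against control for Cxcl11 in P (-0.12 to 0.40 over left-out libraries, below 0 without the first P or the second control library), Cxcl9 in cG (-0.039 to 0.68, below 0 without the first control library) and Cxcl9 in Z (-0.49 to 0.39, above 0 without the second control or second Z library). With a window of 2 kb in place of 20 kb, 5 peaks remained, with 51 calls against control, all higher. With 2 libraries a group and 9 to 66 counts at the Cxcl9 start, depth limits that gene most.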
